A study of Mus musculus with 21 samples.

Results

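The G2 and mitosis genes are a named list of 36 genes whose products carry a cell from the end of DNA replication through chromosome segregation and cytokinesis. A gene was represented by a probe set (the probes for a transcript) that the platform annotation assigns to exactly that gene, and each measured member had 1 such probe set. The list gave 35 measured genes of 22180 in the deposited table. The remaining member, Ccnb1, which encodes cyclin B1, had no such probe set and is not analysed here. The genes came from a hand-written list and not from a threshold on measured values.

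Cells of the mouse stomach corpus were sorted by the brightness of a green fluorescent reporter of Lgr5 (Lgr5GFP), and total RNA of each sorted population was amplified and hybridised to an array. The groups were Lgr5GFP high, low and negative cells of mice given tamoxifen by injection, 0.27 mg for each g of weight, 24 hours ahead of cell isolation (n = 4 arrays each), and Lgr5GFP high, low and negative cells of uninjected controls (n = 3 arrays each). All 6 groups carry the reporter as the sorting label, and there was no vehicle-injected group, so drug, injection and sorting run cannot be told apart in comparisons of tamoxifen with control. Strain, sex and age of the mice, and the number of mice behind a sort, were not given in the sources used here. The design text describes the replicates of a group as technical replicates of separate sorting runs, so the p-values measure the spread between these sorts. Arrays are called by group and replicate number (tamoxifen negative 3). The number in a sample title, which may mark a sorting run, differs from the replicate number. By title number, tamoxifen high and low 1, 2 and 3 match tamoxifen negative 2, 3 and 4, and tamoxifen negative 1 matches no other array.

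Progression through G2 into mitosis is driven by the kinase Cdk1 bound to A-type and B-type cyclins. Polo-like and Aurora kinases then build the spindle, the spindle checkpoint holds back the anaphase-promoting complex until every chromosome is attached, and motor proteins and cytokinesis factors divide the cell. Many of these genes are transcribed together late in the cell cycle through promoter elements called CHR (cell cycle genes homology region) and CCAAT boxes, which are read by the MuvB complex with B-Myb and FOXM1 and by the factor NF-Y. In the stomach corpus most dividing cells lie in the isthmus of the gland, and the chief cells at its base, where the series title places Lgr5, divide rarely at rest.

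Promoter windows of the members show what the genes have in common in sequence. RefSeq windows on GRCm38.p6, from 250 bases before to 50 after an annotated start, were found for 29 of the 35 genes. They were searched on both strands for CHR letters (TTTGAA or TTCGAA, with the reverse complement TTCAAA, and TTCGAA its own reverse complement) and for the letters CCAAT (reverse complement ATTGG), which can share an end base. The 120 bases before the start are printed for 6 members from 4 of the roles below whose windows hold CHR letters there, 5′ to 3′ on the gene's own strand, with CHR and CCAAT letters in capitals. They are the mitotic kinase Cdk1, the ubiquitin-conjugating enzyme Ube2c, the anaphase activator Cdc20, the spindle motor Kif11, the topoisomerase Top2a and Mki67, which encodes the Ki-67 protein.
Cdk1, chr10:69352913-69353032, minus strand: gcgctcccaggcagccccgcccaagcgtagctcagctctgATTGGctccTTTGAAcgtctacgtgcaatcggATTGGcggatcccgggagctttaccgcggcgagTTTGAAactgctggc
Ube2c, chr2:164769809-164769928, plus strand: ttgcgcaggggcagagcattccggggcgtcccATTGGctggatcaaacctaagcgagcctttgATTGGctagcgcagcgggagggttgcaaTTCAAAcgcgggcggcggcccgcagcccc
Cdc20, chr4:118437344-118437463, minus strand: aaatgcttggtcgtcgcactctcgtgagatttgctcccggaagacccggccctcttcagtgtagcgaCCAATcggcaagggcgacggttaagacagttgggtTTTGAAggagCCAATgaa
Kif11, chr19:37376262-37376381, plus strand: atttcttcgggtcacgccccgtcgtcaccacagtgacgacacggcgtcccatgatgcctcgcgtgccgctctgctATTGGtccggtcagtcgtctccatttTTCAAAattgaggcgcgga
Top2a, chr11:99024190-99024309, minus strand: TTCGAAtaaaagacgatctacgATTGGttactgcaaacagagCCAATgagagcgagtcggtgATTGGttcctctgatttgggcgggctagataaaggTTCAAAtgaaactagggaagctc
Mki67, chr7:135716380-135716499, minus strand: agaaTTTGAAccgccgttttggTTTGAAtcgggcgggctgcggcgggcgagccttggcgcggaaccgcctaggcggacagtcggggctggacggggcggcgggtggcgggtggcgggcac
In the windows of Ube2c and Kif11 the CHR letters nearest the start are in reverse orientation (TTCAAA), while in Cdk1 and Cdc20 they read forward (TTTGAA). Top2a shows a CHR match near each end of the printed stretch, and Mki67 holds its CHR letters at the far end, with no CCAAT letters in this stretch.

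CHR letters were present in the windows of 24 of the 29 genes (82.8%), against 21.7% of the 27025 genes in the promoter table. CCAAT letters were present in 23 (79.3%, against 41.1% of all genes), and both motifs in 21 (72.4%, against 8.61%). A CHR match within 50 bases of the start, a distance chosen after the positions were seen, was present in 22 genes (75.9%, against 6.12%). Among the members, Cenpe, Birc5, Nek2, Nuf2 and Nusap1 had no CHR letters in the window, and Birc5, Nuf2 and Nusap1 had neither motif, which says nothing about sequence outside these windows. A further list of 50 measured mitosis genes that are not members had CHR letters in 62.8% of its 43 genes with a window, and a list of 28 S phase genes, which serve DNA replication, in 5 of its 25. CCAAT letters were present in 67.4% of the further mitosis genes and in 68.0% of the S phase genes, so the lists lay apart for CHR letters and not for CCAAT letters. A match of letters is a description of the window and was not tested as a binding site.

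**Figure D1:**
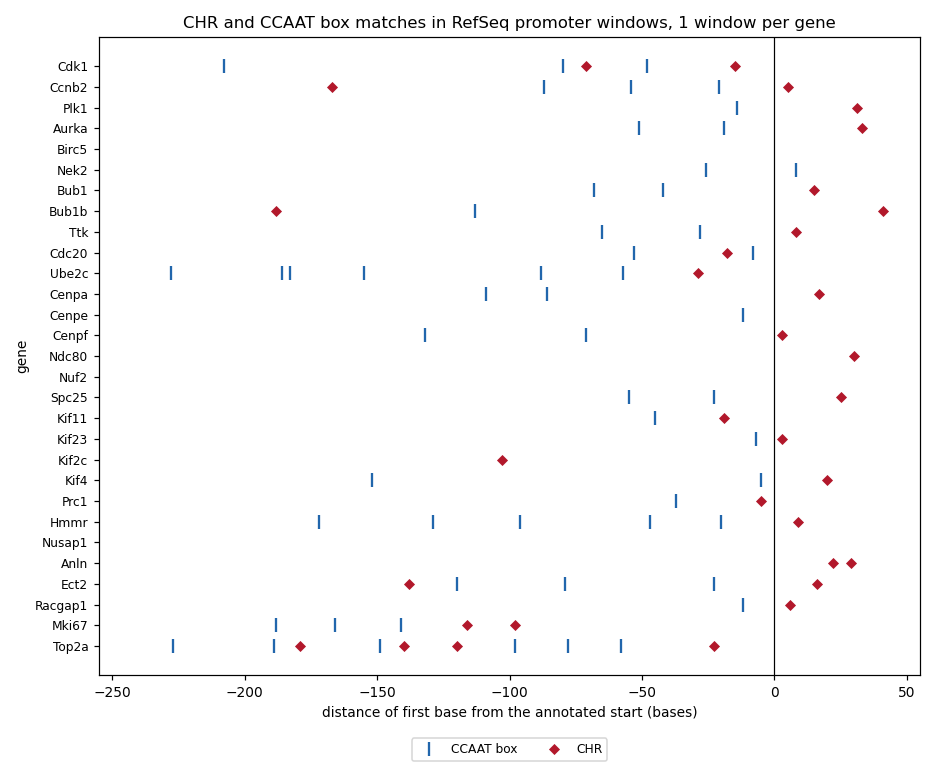
Positions of CHR matches (diamonds) and CCAAT box matches (bars) in the promoter windows of the 29 members with a window, as distance in bases of the first base from the annotated start (x axis), 1 window per gene. In 22 genes a CHR match lies within 50 bases of the start, and the rows of Birc5, Nuf2 and Nusap1 are empty.

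The deposited values are log2 signal, which ran from 0.958 to 13.55 in the table. The 1105 olfactory receptor genes, which should be silent in these cells, gave a guide to background with a 95th percentile of 4.16. Where the dimmer group of a comparison lay at or under 4.16, the fold is given as at least the fold above that level. By group mean 11 of the 35 members lay at or under this level in tamoxifen high, 1 in tamoxifen low, none in tamoxifen negative, 9 in control high, 2 in control low and none in control negative cells. Lgr5, the reporter gene, was 8.05 to 8.74 in tamoxifen high, 6.49 to 7.01 in tamoxifen low, 4.42 to 4.81 in tamoxifen negative, 8.40 to 9.15 in control high, 7.48 to 7.71 in control low and 4.06 to 4.82 in control negative cells. The arrays taken as control negative carry a source label that reads low, while their titles and population label read negative, and their Lgr5 signal lay with that of the tamoxifen negative arrays. Correlations between arrays of a group over all genes were 0.944 to 0.991.

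By group mean, all 35 G2 and mitosis genes were lowest in Lgr5GFP high cells, intermediate in low cells and highest in negative cells in both treatments. In control mice the step between high and low cells rested on control low 3: no member was called there, no member lay apart, and the median log2 change of -0.55 in high against low cells was 0.10 without that array. The mean log2 level over the members was 4.49, 4.15, 4.62 and 4.29 in tamoxifen high 1 to 4, 5.10, 5.45, 5.64 and 5.04 in tamoxifen low, and 5.90, 5.51, 7.22 and 7.72 in tamoxifen negative. In control cells it was 4.32, 4.54 and 5.12 in high 1 to 3, 4.34, 4.83 and 6.47 in low, and 7.71, 7.21 and 7.29 in negative. Every high array lay below every negative array of its treatment, while control low spanned from the level of control high to above every tamoxifen low array. All 35 members had their highest group mean in control negative cells. In sorted bulk samples, fewer dividing cells and less of these RNAs per dividing cell cannot be told apart.

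**Figure D2:**
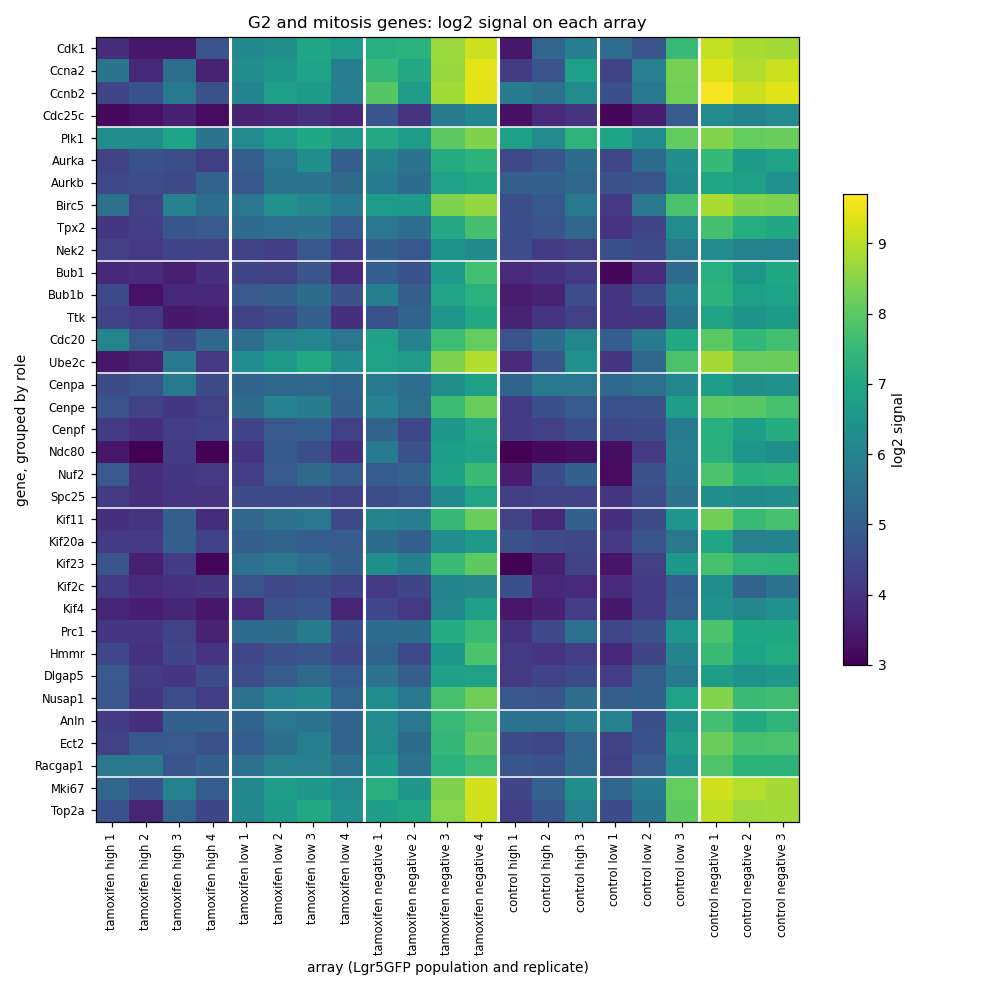
Log2 signal (colour) of the 35 G2 and mitosis genes (rows, grouped by role) on each of the 21 arrays (columns, grouped by treatment and Lgr5GFP population). The columns control low 3 and tamoxifen negative 3 and 4 stand apart from the other arrays of their groups across nearly all rows, and the 3 control negative columns are bright throughout.

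The comparison of high with negative cells asks how much less of the division program the cells with the brightest reporter carried. In tamoxifen mice 34 of the 35 members were lower in high than in negative cells at an adjusted p under 0.05 (limma, Benjamini-Hochberg over all 22180 genes), where 6.97% of all genes were called lower, and none was higher. In control mice 35 of 35 were lower, against 7.66% of all genes. The median log2 change was -2.03 in tamoxifen mice (0.05 for all genes) and -2.69 in control mice (0.04 for all genes). High and negative arrays did not overlap for 30 members in tamoxifen mice, where 6.17% of all genes were lower without overlap, and for 35 in control mice, where that share was 17.0%. The member without a call was Kif2c, a microtubule-depolymerising kinesin, whose mean in high cells was under the background guide in both treatments. Kif2c was at least 1.98-fold lower in tamoxifen mice (adjusted p = 0.056 in limma, called when tamoxifen negative 1 or 2 was left out) and at least 2.87-fold lower in control mice (adjusted p = 0.016). The control call ended without control high 2, control high 3 or control negative 1 (highest adjusted p = 0.11).

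Among the genes of the Cdk1 engine, all 4 measured fell in both treatments, and Cdk1 itself differed most. Cdk1 was 3.87, 3.47, 3.47 and 4.72 in tamoxifen high and 7.21, 7.31, 8.68 and 9.18 in tamoxifen negative cells. In control cells it was 3.44, 5.19 and 5.87 in high and 9.08, 8.86 and 8.78 in negative. No high array came near a negative array in either treatment, and in tamoxifen high only replicate 4 was above the background guide. The log2 change of Cdk1 was -4.21 ± 0.55 in tamoxifen mice (at least 15.3-fold lower, adjusted p = 4.6e-05 in limma) and -4.07 ± 0.63 in control mice (16.8-fold lower, adjusted p = 0.00018).
Ccnb2, which encodes cyclin B2, was 4.39, 4.68, 5.72 and 4.67 in tamoxifen high against 7.93, 6.71, 8.76 and 9.39 in tamoxifen negative cells. In control cells Ccnb2 was 5.82, 5.50 and 6.24 in high against 9.62, 9.18 and 9.36 in negative. The groups lay apart in both treatments, by -3.33 ± 0.58 (adjusted p = 0.00069) in tamoxifen and -3.53 ± 0.67 (adjusted p = 0.001) in control mice. Ccna2, which encodes cyclin A2, changed by -3.53 ± 0.69 (11.6-fold lower) and -3.91 ± 0.80 (15-fold lower). Cdc25c, the phosphatase that activates Cdk1, was at least 2.03-fold and at least 3.99-fold lower in high cells of tamoxifen and control mice.

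The mitotic kinases and the partners of Aurora kinases fell by less, with a median log2 change of -1.78 in tamoxifen and -1.92 in control mice over 6 genes. Plk1, the polo-like kinase that drives mitotic entry, was 6.32, 6.32, 6.89 and 5.59 in tamoxifen high and 7.05, 6.69, 8.0 and 8.44 in tamoxifen negative cells. In control cells Plk1 was 6.81, 6.23 and 7.37 in high and 8.46, 8.12 and 8.17 in negative. In tamoxifen mice tamoxifen high 3 lay above tamoxifen negative 2, while the control groups did not overlap. The changes of Plk1 were -1.26 ± 0.38 (adjusted p = 0.038 in limma) in tamoxifen and -1.44 ± 0.44 (adjusted p = 0.035) in control mice. Plk1 lost its call in tamoxifen mice without any of tamoxifen high 1, 2 and 4 and tamoxifen negative 3 and 4 (highest adjusted p = 0.13, without tamoxifen negative 4), and in control mice without any of control high 1 and 2 and the 3 control negative arrays (highest adjusted p = 0.17, without control high 2).
Aurkb, which encodes the Aurora B kinase that corrects spindle attachments, was 4.49, 4.58, 4.47 and 5.12 in tamoxifen high against 5.78, 5.33, 6.86 and 7.06 in tamoxifen negative cells. In control cells Aurkb was 5.02, 5.08 and 5.20 in high against 6.97, 6.80 and 6.40 in negative. The groups did not overlap, and the changes were -1.60 ± 0.34 (adjusted p = 0.0042) and -1.62 ± 0.40 (adjusted p = 0.0084).
Birc5, which encodes survivin, a partner of Aurora B at the centromere, was 5.47, 4.29, 5.94 and 5.43 in tamoxifen high against 6.68, 6.62, 8.40 and 8.62 in tamoxifen negative cells. In control cells Birc5 was 4.62, 4.84 and 5.72 in high against 8.85, 8.43 and 8.39 in negative. No array overlapped, and Birc5 changed by -2.29 ± 0.57 in tamoxifen mice (adjusted p = 0.012, and 0.055 without tamoxifen negative 3) and by -3.50 ± 0.66 in control mice (11.3-fold lower, adjusted p = 0.001). Aurka, the centrosomal Aurora kinase, Tpx2, its activator on microtubules, and Nek2, a kinase that splits centrosomes, were called lower in both treatments as well.

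**Figure D3:**
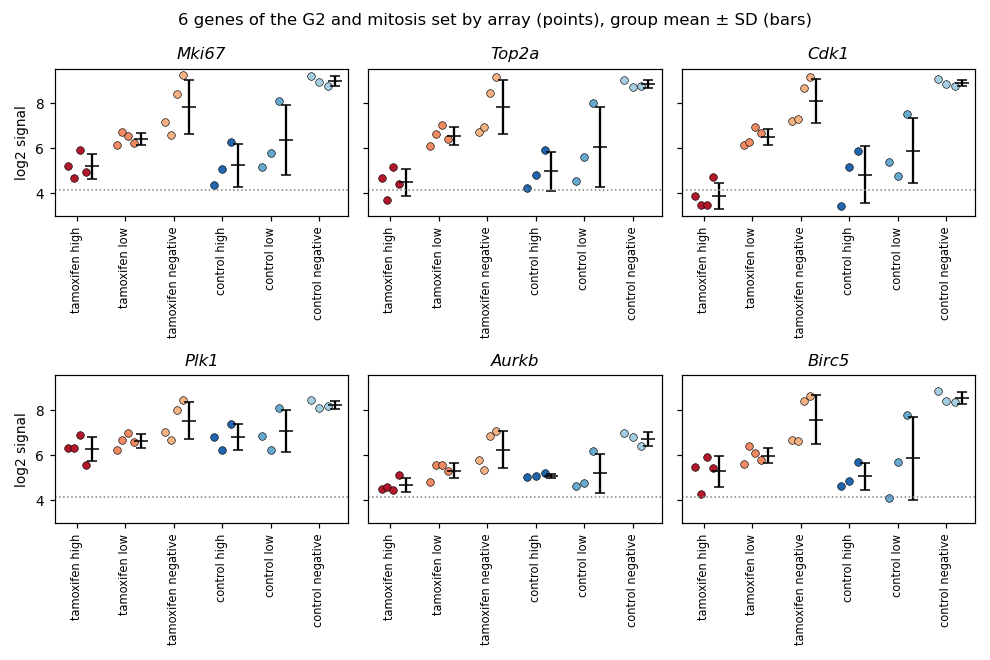
Log2 signal (y axis) of 6 members in the 6 groups (x axis), with each point an array in replicate order, the bar beside the points the group mean ± SD (n = 4 in tamoxifen and n = 3 in control groups), and the dotted line the background guide at 4.16. Control negative points sit close together, while tamoxifen negative and control low each hold separated points.

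Of the spindle checkpoint and anaphase genes all 5 fell in both treatments, with medians of -2.21 and -2.94. Bub1b, which encodes the checkpoint protein BubR1, was 4.51, 3.34, 3.76 and 3.74 in tamoxifen high and 5.88, 5.03, 6.90 and 7.29 in tamoxifen negative cells. In control cells Bub1b was 3.51, 3.63 and 4.59 in high and 7.34, 6.82 and 6.88 in negative. High arrays lay mostly under the background guide, so the fold is a bound, at least 4.34-fold in tamoxifen (adjusted p = 0.0007 in limma) and at least 7.23-fold in control mice (adjusted p = 0.00019). Ube2c, the ubiquitin-conjugating enzyme of the anaphase-promoting complex, was 11.3-fold lower in high cells of tamoxifen mice (-3.49 ± 0.68) and 10.4-fold lower in control mice (-3.38 ± 0.78). Cdc20, which activates that complex, changed by -1.94 ± 0.44 and -2.31 ± 0.51, and Ttk, the kinase that starts checkpoint signalling, was at least 3.24-fold and at least 5.65-fold lower.

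The 6 centromere and kinetochore genes fell in both treatments, with medians of -1.75 and -2.87. Ndc80, the microtubule-binding subunit of the outer kinetochore, was 3.42, 2.97, 4.19 and 2.95 in tamoxifen high and 5.78, 4.65, 6.72 and 6.86 in tamoxifen negative cells. In control cells Ndc80 was 3.00, 3.18 and 3.25 in high and 7.25, 6.51 and 6.34 in negative. All high arrays but tamoxifen high 3 were under the background guide, and the fold was at least 3.60 in tamoxifen (adjusted p = 0.0011) and at least 5.83 in control mice (adjusted p = 0.00018). Its partner Nuf2 changed by -1.87 ± 0.53 and -3.08 ± 0.61, and the tamoxifen call ended without any of tamoxifen high 2, 3 and 4 and tamoxifen negative 3 and 4 (highest adjusted p = 0.1). Cenpa, the histone variant that marks the centromere, had the smallest log2 change of the members in control mice, at -1.0 ± 0.32 (adjusted p = 0.044), and was -1.18 ± 0.28 in tamoxifen mice. The control call of Cenpa ended without any of the 6 control high and negative arrays (highest adjusted p = 0.2, without control high 1).

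Of 9 spindle motor and microtubule genes 8 were called lower in tamoxifen and 9 in control mice, with medians of -1.80 and -2.61. Kif23, a kinesin of the central spindle, was 4.75, 3.60, 4.20 and 3.09 in tamoxifen high and 6.33, 5.88, 7.57 and 8.05 in tamoxifen negative cells. In control cells Kif23 was 3.04, 3.58 and 4.31 in high and 7.76, 7.35 and 7.34 in negative. The groups did not overlap and Kif23 was at least 6.96-fold lower in tamoxifen (adjusted p = 0.00076 in limma) and at least 10-fold lower in control mice (adjusted p = 0.00023). Kif11, the motor that separates spindle poles, changed by -2.68 ± 0.51 and -3.43 ± 0.59, and Prc1, which bundles microtubules of the central spindle, was at least 4.57-fold lower in tamoxifen and 6.11-fold lower in control mice.
The 3 cytokinesis genes, Anln (the actin-binding protein anillin), Ect2 (an exchange factor for RhoA) and Racgap1 (its centralspindlin partner), changed by -1.46 to -2.25 in tamoxifen and by -1.75 to -3.18 in control mice, all past the threshold with every array in the fit. The call of Racgap1 in tamoxifen mice ended without tamoxifen high 3 or 4 or tamoxifen negative 3 or 4 (highest adjusted p = 0.088), and that of Anln in control mice without control high 1 or 2 or control negative 1 or 3 (highest adjusted p = 0.082).

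Mki67 and Top2a, which are in wide use as proliferation markers, fell strongly in both treatments. Mki67 was 5.20, 4.70, 5.95 and 4.95 in tamoxifen high and 7.19, 6.58, 8.41 and 9.25 in tamoxifen negative cells. In control cells Mki67 was 4.39, 5.10 and 6.28 in high and 9.22, 8.95 and 8.79 in negative. Groups did not overlap, and the changes were -2.66 ± 0.56 (adjusted p = 0.0033) and -3.73 ± 0.64 (13.3-fold lower, adjusted p = 0.00045).
Top2a, the topoisomerase that untangles sister chromatids, was 4.68, 3.70, 5.18 and 4.40 in tamoxifen high and 6.72, 6.96, 8.47 and 9.18 in tamoxifen negative cells. In control cells Top2a was 4.24, 4.80 and 5.94 in high and 9.05, 8.73 and 8.77 in negative. The groups again lay apart, by -3.34 ± 0.59 (10.1-fold lower, adjusted p = 0.00086) in tamoxifen and -3.86 ± 0.68 (14.5-fold lower, adjusted p = 0.00058) in control mice.

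**Figure D4:**
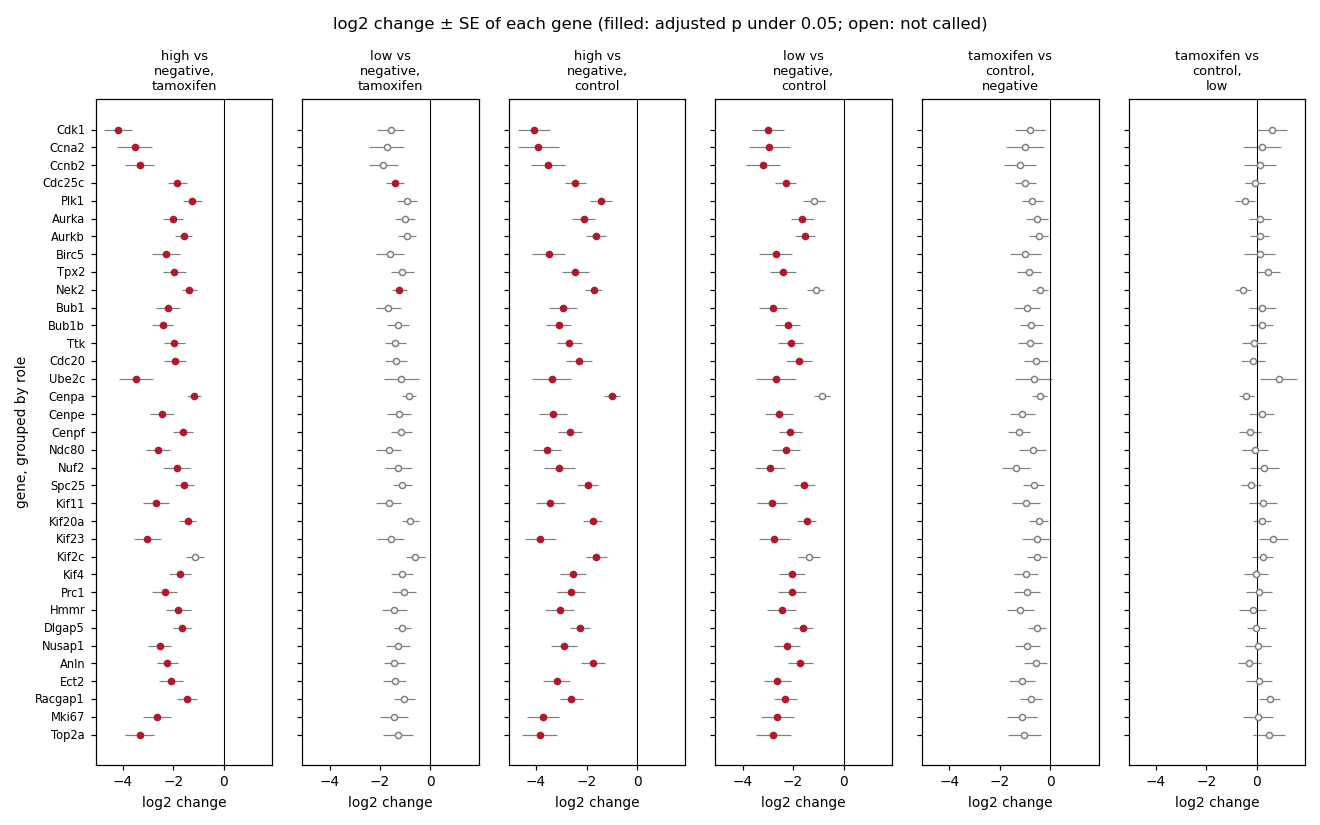
Log2 change ± SE (x axis) of each of the 35 members (rows, grouped by role) in 6 comparisons, with filled points for an adjusted p under 0.05 in limma and open points for no call. All points lie left of 0 in the first 5 panels, 34, 2, 35 and 31 members are called in the first 4, and none is called in either comparison of tamoxifen with control.

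Low cells also carried less of these genes than negative cells. In control mice 31 of 35 members were called lower in low than in negative cells, against 3.41% of all genes. The median log2 change was -2.29 (0.03 for all genes), and all 35 were lower without overlap (13.8% of all genes). The members without a call were Plk1, Cenpa, Kif2c and Nek2, with adjusted p = 0.16, 0.14, 0.072 and 0.071. With the number in the titles as a block, which pairs these arrays, all 35 were called, Plk1 among them (adjusted p = 0.032). Without the block the count was 3 without control low 1, 7 without control low 2, 34 without control low 3, and 10, 19 and 15 without control negative 1, 2 and 3.
Cdc25c had the smallest adjusted p, with 3.11, 3.52 and 4.93 in control low and 6.23, 6.0 and 6.24 in control negative cells. All low arrays lay below all negative arrays, and Cdc25c was at least 3.99-fold lower (adjusted p = 0.0027 in limma). Bub1, a checkpoint kinase, was 3.15, 3.83 and 5.34 in control low and 7.21, 6.55 and 6.98 in control negative cells, at least 6.76-fold lower (adjusted p = 0.005). Racgap1 was 4.26, 4.93 and 6.40 in control low against 7.86, 7.34 and 7.34 in control negative cells, 4.98-fold lower (adjusted p = 0.005). In each of these genes control low 3 stood well above control low 1 and 2 and still below every control negative array. Ect2 was 4.37, 4.70 and 6.73 in control low against 8.17, 7.76 and 7.77 in control negative cells (-2.63 ± 0.54, adjusted p = 0.0064, and 0.059 without control low 1). Kif11 was 3.94, 4.54 and 6.49 in control low against 8.25, 7.53 and 7.74 in control negative cells (-2.85 ± 0.59, adjusted p = 0.0064, and 0.061 without control low 1).

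In tamoxifen mice 2 of 35 members were called lower in low than in negative cells, against 1.73% of all genes. All 35 estimates were still below 0 (median -1.28, 0.04 for all genes), and 33 members had an unadjusted p under 0.05. The low and negative arrays lay apart for 9 members, against 3.81% of all genes lower without overlap. Nek2 was 4.33, 4.22, 4.81 and 4.25 in tamoxifen low and 5.08, 4.82, 6.44 and 6.20 in tamoxifen negative cells (-1.24 ± 0.30, adjusted p = 0.028 in limma). Cdc25c was 3.63, 3.74, 3.99 and 3.76 in tamoxifen low and 4.80, 4.02, 5.75 and 6.14 in tamoxifen negative cells (at least 2.03-fold lower, adjusted p = 0.048). In both genes the lowest negative array, tamoxifen negative 2, lay just above the highest low array. Without tamoxifen negative 2 the count of called members was 15, and without tamoxifen negative 1 it was 4. It was 1 without tamoxifen low 3, and 0 without tamoxifen low 1, 2 or 4 or tamoxifen negative 3 or 4.

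Between high and low cells Cdk1 was the only member called, in tamoxifen mice. Cdk1 was 3.87, 3.47, 3.47 and 4.72 in tamoxifen high against 6.13, 6.30, 6.93 and 6.67 in tamoxifen low cells, with no overlap, at least 5.10-fold lower (-2.63 ± 0.55, adjusted p = 0.0096 in limma), where 1.77% of all genes were called lower. All 35 estimates were below 0 (median -0.69), and 2 members were called without tamoxifen high 3. Top2a (-2.06 ± 0.59) and Ube2c (-2.34 ± 0.68) had adjusted p = 0.06 and 0.062. In control mice no member was called (1.34% of all genes in either direction, and 1 member at an unadjusted p under 0.05), and the median of -0.55 was -0.97 without control low 1 and 0.10 without control low 3. High and low arrays did not overlap for 19 members in tamoxifen mice (4.57% of all genes lower without overlap) and for none in control mice (7.81% of all genes).

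Tamoxifen and control cells of the same population were compared to ask whether division genes differed 24 hours after injection, and no member was called in any population. In negative cells all 35 estimates were below 0, with a median log2 change of -0.81 (0.00 for all genes), 6 members had an unadjusted p under 0.05, the smallest adjusted p was 0.19 (limma), and 2.32% of all genes were called. The estimates ran from -1.35 to -0.41. For no member were the tamoxifen and control negative arrays apart, against 15.3% of all genes in either direction. The median was -0.48 without tamoxifen negative 2 and -1.22 without tamoxifen negative 4, where 2 members were called.
For all 35 members tamoxifen negative 1 and 2 both lay below tamoxifen negative 3 and 4. Cenpf, a kinetochore-associated protein and the member with the smallest adjusted p here, was 5.14, 4.45, 6.55 and 7.04 in tamoxifen negative against 7.21, 6.74 and 7.14 in control negative cells (-1.23 ± 0.43). Nuf2 had the lowest estimate, with 4.95, 5.10, 6.84 and 7.57 in tamoxifen negative against 7.81, 7.25 and 7.33 in control negative cells (-1.35 ± 0.57, adjusted p = 0.31). Replicates 3 and 4 of tamoxifen negative thus lay at or near the control negative arrays in these genes, and replicates 1 and 2 well under them. Mki67 changed by -1.13 ± 0.60 and Cdk1 by -0.81 ± 0.59, with adjusted p = 0.47 and 0.65.

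In low cells the estimates lay on both sides of 0, 22 above and 13 below, with a median of 0.12, no member at an unadjusted p under 0.05 (8.32% of all genes were called) and adjusted p from 0.35. The median depended on single arrays. It was -0.36 without control low 1, -0.11 without control low 2, 0.68 without control low 3, and 0.19, 0.03, 0.01 and 0.22 without tamoxifen low 1 to 4. Control low 3 was the highest control low array for all 35 members and lay above every tamoxifen low array for 34, while control low 1 and 2 both lay below every tamoxifen low array for 17. Mki67 shows the pattern, with 6.14, 6.73, 6.56 and 6.26 in tamoxifen low and 5.18, 5.79 and 8.12 in control low cells (0.06 ± 0.60, adjusted p = 0.97).
In high cells 29 estimates were below 0 and 6 above, with a median of -0.20 (-0.42 without control high 1 and -0.07 without control high 3), and 2.73% of all genes were called. Anln, with 4.19, 3.91, 5.08 and 5.06 in tamoxifen high against 5.54, 5.52 and 5.86 in control high cells, was the only member at an unadjusted p under 0.05 (-1.08 ± 0.45, adjusted p = 0.22). Its groups did not overlap, as for 1 other member, Spc25, a kinetochore subunit (-0.29), against 4.6% of all genes lower without overlap.
The differences of the tamoxifen effect between populations, tested as interaction terms, gave no call. The median was 0.52 for high minus negative (0.248% of all genes called, and no member at an unadjusted p under 0.05), 0.96 for low minus negative (0.839%, and 1 member at an unadjusted p under 0.05) and -0.31 for high minus low (0.0271%, and none). These medians moved to 0.26, 0.21 and 0.91 without tamoxifen negative 1, 2 and 4, to 0.51, 0.53 and 1.56 without tamoxifen negative 2, control low 1 and control low 3, and to -0.10, 0.07, -0.14 and -0.87 without control high 3 and control low 1, 2 and 3, in the same order of comparisons.

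The members varied together from array to array. Over the 21 arrays the Pearson correlation between 2 members had a median of 0.93 over 595 pairs (0.74 to 0.98), and after the group means were removed it had a median of 0.83 (lowest 0.47). The arrays share sorts, amplification and normalisation, so this is a description. Each member's correlation with the mean of the other members ran from 0.887 for Cenpa and 0.90 for Plk1 and Kif2c to 0.985 for Mki67 and 0.99 for Nusap1, a microtubule-binding protein of the spindle. The spread between arrays of a group was larger for the members than for all genes, with a median SD of 1.09 against 0.24 in tamoxifen negative, 1.09 against 0.21 in control low and 0.26 against 0.15 in control negative cells. Outside all the lists used here, the genes with the highest correlation to the members' mean were Shcbp1 (0.981), Esco2 (0.977), Cdkn3 (0.968), Cip2a (0.965), Kif20b (0.962), Gas2l3 (0.961), Kntc1 and Prr11 (0.958 each), Ticrr (0.954) and Pclaf (0.953).

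Other genes of cell division were taken from lists that hold no member. Of 50 further mitosis genes 35 were called lower in high than in negative cells in tamoxifen mice (median -1.47). Without tamoxifen negative 3 the count was 21. In control mice 40 were called lower (median -2.02). Of all genes 6.97% and 7.66% were called lower there. Tacc3, a spindle protein, changed by -2.23 ± 0.39 (adjusted p = 0.00069 in limma) and -2.96 ± 0.44 (adjusted p = 0.00013), and Kif22, a chromosome-arm motor, was at least 2.60-fold and at least 4.97-fold lower. In control mice 1 of the 50, the checkpoint protein Bub3, was called higher in high cells, against 4.64% of all genes. In tamoxifen against control negative cells 49 of the 50 estimates were below 0 with none called and 12 at an unadjusted p under 0.05 (median -0.55). The median was -0.32 without tamoxifen negative 2 and -0.35 without control negative 1, and 3 were called without tamoxifen negative 4. In high cells 1 of the 50 was called lower with tamoxifen, Bub3 (-0.91 ± 0.22, adjusted p = 0.026). That call ended without tamoxifen high 1 or 2 or control high 1 or 2, with an adjusted p of 0.16 at the highest. Of all genes 2.73% were called in that comparison, so 1 of 50 is not read as a trait of the list.

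S phase genes were also lower in high than in negative cells, and some were higher in low cells after tamoxifen. Of 28, 24 were called lower in high than in negative cells in tamoxifen mice and 23 in control mice, against 6.97% and 7.66% of all genes. An example is Mcm3, a subunit of the replicative helicase (-2.04 ± 0.32 and -2.33 ± 0.37, adjusted p = 0.00029 and 0.0002 in limma). In tamoxifen against control low cells 8 of 28 were called higher and none lower (median 0.78), where 5.35% of all genes were called higher. Mcm4, another helicase subunit, rose by 1.83 ± 0.37 to a mean of 6.98 in tamoxifen low, against 5.15 in control low cells (adjusted p = 0.0036, and at most 0.032 without any single array). Mcm5 (1.36 ± 0.31), Mcm3 (1.42 ± 0.34) and Gins1, a part of the replication initiation complex (1.54 ± 0.37), also rose, with adjusted p = 0.0092, 0.012 and 0.012, which were 0.072, 0.084 and 0.1 at the highest, without control low 2, 2 and 1. The count of 8 was 2 without control low 1 or 2, 14 without control low 3 and 5 without tamoxifen low 3. In the same comparison 8 of 9 tuft cell genes were called lower (median -3.30), with a mean level of 5.31 to 6.87 in tamoxifen low against 8.33 to 9.62 in control low cells, where 2.98% of all genes were called lower. Parietal cell genes (4 of 10) and chief cell genes (2 of 9, with Bhlha15 at -3.02 ± 0.36) were called lower too. So were mucous neck cell genes (2 of 5) and endocrine cell genes (2 of 8). Called higher were 2 of 7 pit cell genes and 1 of 7 isthmus progenitor genes, Stmn1. The part of these cell types in the S phase values was not tested. None of the 35 G2 and mitosis genes was called there, and the difference between the lists was not tested. In negative cells the S phase median with tamoxifen was -0.01, with none called and 1 gene at an unadjusted p under 0.05.

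**Figure D5:**
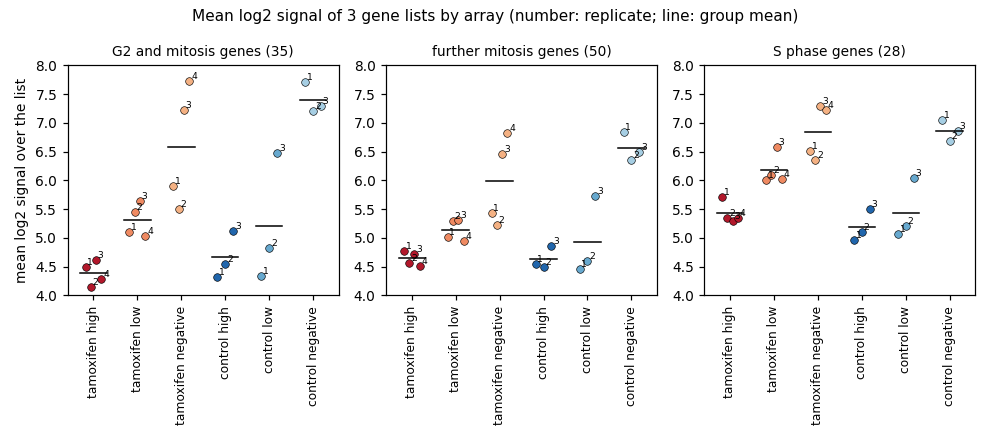
Mean log2 signal (y axis) over the 35 G2 and mitosis genes, 50 further mitosis genes and 28 S phase genes on each array, by group (x axis), with the replicate number beside each point and a line at the group mean. In the left panel control low 3 (6.47) lies above all tamoxifen low points and tamoxifen negative 3 and 4 lie above 1 and 2. The tamoxifen low points of the S phase panel (6.0 to 6.58) lie above control low 1 and 2, while control low 3 (6.04) lies above tamoxifen low 1 and 4.

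Of 29 measured regulators of this program, 9 were called lower and none higher in high than in negative cells of tamoxifen mice. Without tamoxifen negative 3 the count called lower was 5. In control mice 8 were called lower and 2 higher. The higher count was 1 when any of control high 1 and 2 and the 3 control negative arrays was left out. Of all genes 6.97% were called lower in tamoxifen mice, and 7.66% lower and 4.64% higher in control mice. The 2 higher of 29 lie close to that last share. Foxm1, a transcription factor of late cell cycle genes, was 3.85, 3.86, 3.76 and 4.05 in tamoxifen high against 4.91, 4.29, 5.77 and 5.47 in tamoxifen negative cells. In control cells Foxm1 was 4.53, 3.53 and 4.16 in high against 6.06, 5.33 and 5.56 in negative. High arrays lay under or close to background, and Foxm1 was at least 1.93-fold (adjusted p = 0.0077 in limma) and at least 2.81-fold lower (adjusted p = 0.0025). Mybl2, which encodes B-Myb, changed by -0.85 ± 0.23 (adjusted p = 0.019) and -0.89 ± 0.26 (adjusted p = 0.029), and leaving out an array ended these calls for 3 of 8 arrays in tamoxifen and 5 of 6 in control mice (highest adjusted p = 0.085 without tamoxifen negative 3 and 0.11 without control negative 2).

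Cdkn1a, which encodes the cell cycle inhibitor p21, was higher after tamoxifen in negative cells. It was 10.64, 10.64, 10.14 and 8.74 in tamoxifen negative and 8.21, 7.55 and 8.02 in control negative cells. All tamoxifen arrays lay above all control arrays, with tamoxifen negative 4 the nearest to control, and Cdkn1a rose 4.33-fold (2.11 ± 0.36, adjusted p = 0.0026 in limma). Tamoxifen negative 4, the array with the least Cdkn1a in its group, had the highest members' mean (7.72), while tamoxifen negative 3 had 10.14 for Cdkn1a and 7.22 for the members, and any link between them was not tested. Cdkn2c, which encodes the inhibitor p18, fell in the same comparison (-0.99 ± 0.25, adjusted p = 0.041), a call kept only when tamoxifen negative 4 was the array left out (highest adjusted p = 0.22, without control negative 1). In control mice Cdkn1a was also higher in high than in negative cells (4.48-fold, adjusted p = 0.0006). In tamoxifen mice it was not, with means of 10.15 and 10.04 (0.10 ± 0.33, adjusted p = 0.89). Between tamoxifen and control Cdkn1a was not called in high (0.05 ± 0.36, adjusted p = 0.96) or low cells (0.93 ± 0.36, adjusted p = 0.12). Its interaction terms against negative cells were not called either (adjusted p = 0.10 for high and 0.46 for low). Cdkn1b, the inhibitor p27, was 6.77, 6.26, 6.09 and 6.62 in tamoxifen low against 7.07, 7.24 and 7.38 in control low cells (-0.80 ± 0.20, adjusted p = 0.016), a call that ended without tamoxifen low 2 or 3 or control low 2 or 3 (highest adjusted p = 0.067). Cdkn1c, the inhibitor p57, also fell in low cells, by 1.67 on the log2 scale (SE 0.36, adjusted p = 0.006).

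Some marker lists of other cell types differed between the populations. Surface pit cell genes (7 measured) had a mean log2 level of 7.65 to 9.01 in tamoxifen high, 9.64 to 10.30 in tamoxifen low, 11.17 to 11.58 in tamoxifen negative, 8.28 to 9.20 in control high, 8.82 to 9.52 in control low and 11.51 to 11.64 in control negative cells. In both treatments 6 of 7 were called lower in high than in negative cells, against 6.97% of all genes in tamoxifen and 7.66% in control mice. Tuft cell genes (9 measured) ran the other way, with 7 of 9 in tamoxifen and 8 of 9 in control mice called higher in high than in negative cells, against 3.33% and 4.64% of all genes. Of 9 chief cell genes 4 were called higher in high than in negative cells in each treatment, against the same shares. In control mice 1 of the 9, Pga5, was called lower (7.66% of all genes). Endocrine cell genes (8 measured) were 9.01 to 10.06 in tamoxifen negative and 7.81 to 8.23 in control negative cells. In high against negative cells 7 were called lower in tamoxifen and 6 in control mice. In low against negative cells 5 were called lower in tamoxifen mice and 0 in control mice, against 1.73% and 3.41% of all genes. Immune cell genes (12 measured) had means of 4.06, 4.44, 5.08 and 4.93 in tamoxifen negative 1 to 4, with replicate 1 under the background guide of 4.16. Like the members, they were higher on replicates 3 and 4 than on 1 and 2. Within 1 and 2, and within 3 and 4, their order was the reverse of the members' order. In control low 1 to 3 the pit cell mean was 8.82, 9.52 and 9.48 and the S phase mean 5.06, 5.21 and 6.04. Isthmus progenitor genes (7 measured) had group means of 6.25, 6.25 and 6.29 in tamoxifen high, low and negative and 6.05, 6.14 and 6.57 in control cells. They split in high against negative cells, with 2 called higher (Runx1 and Sox2) and 2 lower (Hmgb2 and Iqgap3) in tamoxifen mice. In control mice 1 was called higher (Runx1) and 3 lower (Hmgb2, Stmn1 and Iqgap3). Fibroblast and endothelial cell genes had group means of 3.86 to 4.23 and 3.65 to 3.97, near or under the background guide. The part of these cells in the levels of the G2 and mitosis genes was not tested.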

How the data were processed

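RNA of 21 sorted samples was measured on microarrays. The deposited table holds log2 signal per probe set made by the authors, for which R 3.2.3, limma 3.26.8, RMA and oligo are named per the submitters' processing notes, with no role or order. The genome build of the table is not given in the sources used here. Depth has no meaning for arrays, and the number of arrays limits the precision. Of 41345 probe sets, 23521 had exactly 1 gene in the platform annotation, and the brightest per gene left 22180 genes, with no filter on level. Group means were fitted with limma 3.58.1 in R 4.3.3 (lmFit and eBayes, 15 residual and 5.27 prior degrees of freedom), and called genes had a Benjamini-Hochberg adjusted p under 0.05 over all genes, two-sided. SE come from the fit, and SD were taken over the arrays within each group. The fit was also run on simulated data with independent noise for each gene and array. That setting does not cover arrays on which the members shift together.

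The members and lists were chosen with earlier results of these data known. Values by array are given for a fixed panel and for up to 4 called members with the smallest adjusted p per comparison, and Cenpf, Nuf2 and Anln were added after their values were seen. Promoter sequences are from RefSeq (GRCm38.p6).

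Alternatives were cyclic loess, averaging all probe sets per gene, a robust eBayes fit with an intensity trend, weighting of arrays, leaving out the dimmest 25 percent of genes, only the groups compared, the sorting run as a random block, a replicate block and leaving out each array. Numbers in titles may mark sorting runs. Same-numbered arrays deviated together by the rule that every correlation exceeds 0.1 for control high and low (0.22 to 0.32) and control low and negative cells (0.11 to 0.23), but not for control high and negative (0.09 to 0.17), tamoxifen populations (-0.16 to 0.41) or tamoxifen against control (-0.18 to 0.18).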

Additional observations from a re-analysis of the deposited data

Results flagged for a closer look

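Of 108 groups of 4 arrays tested for an outlying array (the 35 members and their mean, in the 3 tamoxifen groups), 3 held an array whose gap to the nearest other array exceeded the critical share of 0.829 of the group's range, where chance gives about 1 in 20. All were in tamoxifen high cells. Aurkb was 5.12 on tamoxifen high 4, with the nearest array at 4.58 (share 0.834). Cenpa was 5.72 on tamoxifen high 3, with the nearest at 4.71 (share 0.847). Kif11 was 5.02 on tamoxifen high 3, with the nearest at 4.02 (share 0.873). The separated pairs of tamoxifen negative arrays did not reach that share, and groups of 3 were not tested.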

How the results depend on the processing

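Counts of called members moved by over 1.5 times in 4 comparisons, and the cause was not tested unless named. For tamoxifen against control in negative cells, none called in the chosen fit became 1 with array weights. The count was 0 to 2 when an array was left out and 11 with the replicate block. That block pairs tamoxifen and control arrays that share only a replicate number. In it tamoxifen negative 4, with no control of its number, carries no weight in the difference. For low against negative cells in tamoxifen mice, 2 became 1 with cyclic loess, eBayes trend and robust or array weights, 0 with only the groups compared and 0 to 15 when an array was left out. For high against low cells in tamoxifen mice, 1 became 2 without the dimmest 25 percent, 3 with the sorting run as a random block, 6 with only the groups compared, 3 with the replicate block and 1 to 2 when an array was left out. For low against negative cells in control mice, 31 became 3 to 34 when an array was left out. With the replicate block, control low against negative cells gave 35. For the members, this block moved counts by over 1.5 times only in tamoxifen against control negative cells and in high against low tamoxifen cells. For high against negative cells, counts were 27 to 35 in tamoxifen and 31 to 33 in control mice when an array was left out, and at least 25 and 34 in the other settings. Of 50 further mitosis genes, the 35 called for high against negative cells in tamoxifen mice became 17 with only the groups compared, and the 8 S phase genes called for tamoxifen against control low cells became 14 with the replicate block, where the arrays share only a number. Single members were tallied by comparison and setting. The tally held Mki67, Top2a, Cdk1, Aurkb, Plk1 and Birc5, and up to 4 called members with the smallest adjusted p per comparison. Of these results 57 lost and 9 gained a call, 1300 kept their side of the threshold, and none reversed. Results with no call in the chosen fit count as kept while they stay uncalled. Calls of members outside the tally, such as Cenpa and Nuf2, are not in it. Signal near background limits folds in high cells.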
